A study of Homo sapiens with 4 samples.

Results

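The genes described here are 47 components of the WNT pathway, taken from the expression table of PC9 cells by their gene symbols. All 47 were found among the 18134 genes of the table. They comprise 11 WNT ligands, 2 genes of ligand secretion, 13 receptors and co-receptors, 2 R-spondin receptors, 3 Dishevelled genes, 5 genes of the destruction complex and beta-catenin, 4 TCF/LEF factors and 7 feedback or secreted inhibitors. PC9 cells are a long-established line from a human lung adenocarcinoma. The cells had been infected with a lentivirus carrying either a short hairpin RNA against TPX2 (shTPX2) or a negative-control hairpin (shNC), and were selected with an antibiotic, so the control cells had also gone through infection and selection. Each group was sequenced as 2 libraries in a single labelled batch. Both shTPX2 libraries carry the same hairpin label, and nothing in the labels says whether the libraries of a group came from separate cultures, so the p-values below measure the spread between these libraries only.

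WNT proteins are secreted lipid-modified ligands. At the cell surface they bind Frizzled receptors together with the co-receptors LRP5 or LRP6, or with ROR1, ROR2 or RYK. In the canonical branch, receptor binding recruits Dishevelled and stops a destruction complex of AXIN, APC and GSK3 from marking beta-catenin for degradation, after which beta-catenin acts with TCF/LEF factors on target genes. Other branches act on cell polarity and movement without beta-catenin. In the lung, WNT signalling takes part in branching and in the maintenance of alveolar progenitor cells.

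The question asked of these libraries was which WNT components differed in mRNA between shTPX2 and shNC cells. The expected counts summed to between 20906441 and 21972583 per library. TPX2, the targeted gene, measured 55.0 and 112 TPM in the shNC libraries and 43.4 and 43.8 TPM in the shTPX2 libraries. Its log2 fold change was −0.81 (SE 0.315, edgeR unadjusted p = 0.0403 and adjusted p = 0.618, limma unadjusted p = 0.0592). Without shNC 2 it was −0.24, and without shNC 1 it was −1.21, so the size of the knockdown rested on which control library was used. Levels are given as TPM, which is scaled for transcript length and can be compared between genes. Differences are given as the log2 fold change of shTPX2 over shNC from edgeR on expected counts with TMM normalization. The scales do not share a zero, since the median log2 ratio of the group means over all tested genes was −0.12 in TPM and −0.0085 in the edgeR fit, and a slightly lower TPM in shTPX2 is therefore no difference by itself. The epithelial markers EPCAM, CDH1, KRT7, KRT8, KRT18, KRT19 and EGFR were all present, from 78.4 TPM upwards, while the lung lineage genes NKX2-1 and NAPSA had 0.04 to 1.55 and 0.83 to 1.67 TPM. Fibroblast markers summed to 9.19 and 12.4 TPM in the shNC libraries and to 5.9 and 8.29 TPM in the shTPX2 libraries, with 5 of the 6 under 1 TPM in every library and LUM at 0 in all of them. Endothelial markers summed to 19.9 and 32.6 TPM in shNC and to 31.1 and 36.5 TPM in shTPX2. Of these, CDH5 was called higher by limma (14.4 and 18.1 TPM in the shNC libraries and 26.7 and 30.5 TPM in the shTPX2 libraries), PECAM1 was not called (5.38 and 14.4 TPM in the shNC libraries and 4.2 and 5.92 TPM in the shTPX2 libraries), and VWF and KDR were under 1 TPM in every library. Leukocyte markers summed to 127 and 223 TPM in shNC and to 192 and 169 TPM in shTPX2, of which CD68 alone gave 126 and 220.4 TPM in the shNC libraries and 191 and 168 TPM in the shTPX2 libraries, while PTPRC and CD3E were under 1 TPM in every library.

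Of the 47 genes, 45 passed the filter on low counts. At the criteria of the study's methods, which take limma with unadjusted p-values up to 0.1 and a log fold change of 0.3 or more, used here as log2 and in either direction, 8 of the 45 (17.8%) were called, and 14.2% of all 14048 tested genes were. The 8 were all lower in shTPX2 (17.8%), where 7.99% of all genes were called lower. The called genes were the ligands WNT6, WNT10A and WNT11, the ligand carrier WLS, the receptors FZD2, FZD7 and ROR2, and DKK3 of the Dickkopf family. No Dishevelled, destruction complex or TCF/LEF gene was among them. For WNT11 and ROR2 only shNC, the group where they were higher, reached the cutoff of the filter on low counts in both libraries, so the filter favoured that direction and they add no support to the count. The other 6 called genes were among the 43 that reached it in both groups. None was called higher by limma, where 6.24% of all genes were, and 0 were higher at an unadjusted p under 0.05 in edgeR, where 3.13% of all genes were. At an unadjusted p under 0.05 in edgeR, 4 genes were lower (DKK3, WLS, FZD7 and WNT6), where 4.9% of all genes were lower. After Benjamini-Hochberg adjustment over all genes, edgeR called 0 of the 45 at 0.05, with a smallest adjusted p of 0.437. DESeq2 called 1 of them, DKK3, and limma called 0 at an adjusted p of at most 0.1. Over the 45 genes the median log2 fold change was −0.11, with 31 below 0 and 14 above. Over all 14048 tested genes it was −0.0085, with 7185 below 0 and 6863 above. Between libraries of a group, the per-library median of the members had a pooled SD of 0.092 in log2. The gap between shNC 1 and shNC 2 exceeded the group difference for 23 of the 45 genes (51.1%), and for 58.5% of all genes. Over all tested genes, the log2 CPM of shNC 1 had a Pearson correlation of 0.972 with shNC 2 and of 0.983 with shTPX2 1. The libraries therefore did not sort wholly by group. In CPM with TMM factors, the 2 libraries of one group lay wholly apart from those of the other for 17 members, against 39.6% of all genes. Of these, 4 were higher in shTPX2 (WNT5B, WNT7B, DVL1 and AXIN1), against 19.4% of all genes, and 13 were lower, against 20.2%. In TPM the groups overlapped for WNT5B, DVL1 and AXIN1, and WNT7B was wholly lower in shTPX2.

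**Figure D1:**
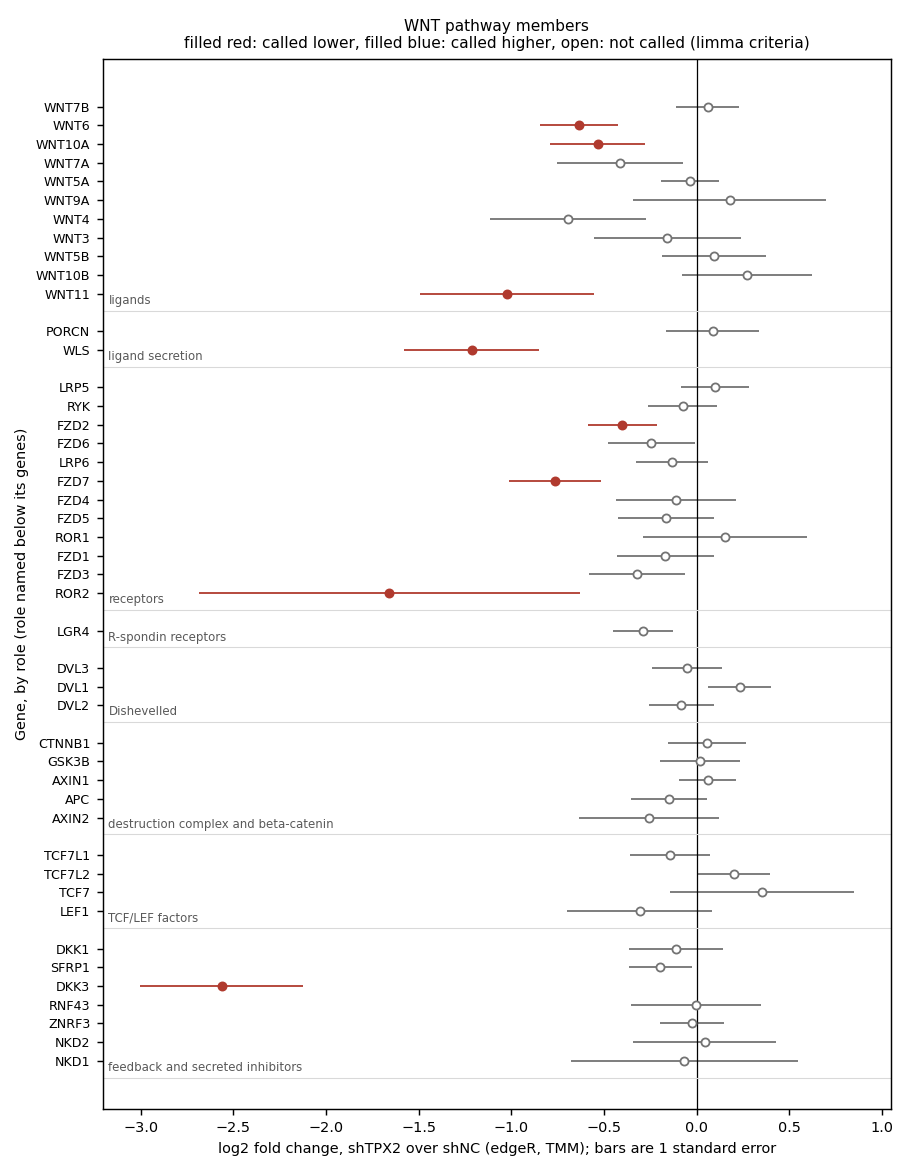
Log2 fold change of shTPX2 over shNC for the 45 tested genes (horizontal axis, edgeR with TMM), grouped by role on the vertical axis, with bars of 1 standard error. The 8 filled red points are the genes called lower at the limma criteria, and they lie among the ligands, WLS, the receptors and DKK3, while the Dishevelled, destruction complex and TCF/LEF genes lie between −0.31 and 0.35.

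Leaving out single libraries changed which genes were called. The number called over all genes moved as well, so the counts below do not measure a stronger or weaker WNT difference. Without shNC 1, 5 members were called lower and 2 higher, and 4 of the 8 genes were among them. Without shNC 2, 10 were called lower, 7 of the 8 among them. Without shTPX2 1, 6 were called lower, 5 of the 8 among them, and without shTPX2 2, 4 were called lower, 3 of the 8 among them. DKK3 and WLS were called lower in each of these 4 fits, in which the library that stood alone was assumed to vary like the other group.

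The ligands were led by WNT7B, which encodes a ligand of lung development. Its level was 224 and 226 TPM in the shNC libraries and 210.4 and 221 TPM in the shTPX2 libraries, which was 54.3% to 63.4% of the summed TPM of the 11 ligands in a library. Its log2 fold change was 0.059 (SE 0.168, edgeR adjusted p = 0.952), and −0.00995 with library size in place of TMM, so no direction was settled for the most abundant ligand. WNT6 (NCBI gene 7475), a ligand found in epithelia, came next with 80.1 and 98.4 TPM in the shNC libraries and 43.9 and 61.8 TPM in the shTPX2 libraries. The groups did not overlap, shTPX2 being lower, and the log2 fold change was −0.63 (SE 0.213, edgeR unadjusted p = 0.0227 and adjusted p = 0.582, limma unadjusted p = 0.0222). It was −0.42 without shTPX2 1, and WNT6 was then no longer called. WNT10A (NCBI gene 80326), a ligand of ectodermal appendages such as hair and teeth, measured 23.6 and 22.1 TPM in the shNC libraries and 16.9 and 11.4 TPM in the shTPX2 libraries. These values also did not overlap, and the log2 fold change was −0.53 (SE 0.257, edgeR unadjusted p = 0.0806 and adjusted p = 0.666, limma unadjusted p = 0.0685). It was −0.87 without shTPX2 1 and −0.25 without shTPX2 2, and the call was lost without shTPX2 2 and without shNC 1.

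WNT6 and WNT10A are neighbours on chromosome 2, and their records in RefSeq (GRCh38.p14) span 218859805 to 218874233 and 218874116 to 218893928, an overlap of 118 bases at the end of WNT6. The submitters' processing notes name GRCh38 as the genome build. Reads in that overlap can belong to either gene. The level of WNT6 was 3.4 and 4.45 times that of WNT10A in the shNC libraries and 2.6 and 5.44 times in the shTPX2 libraries, so their ratio did not separate the groups. Promoter windows of 250 bases are shown for both genes because these adjacent ligands were both called lower. Those of the ligand carrier WLS, which was called lower as well, and of DKK1, the most abundant inhibitor, are also shown. The DKK1 window holds the motif named next. Capitals mark CTTTGA, a form of the TCF/LEF core motif, on either strand, where TCAAAG is its reverse complement. Other forms of the motif were not searched, so the counts and shares below cover this form only.
WNT6 (chr2:218859555-218859804, plus strand): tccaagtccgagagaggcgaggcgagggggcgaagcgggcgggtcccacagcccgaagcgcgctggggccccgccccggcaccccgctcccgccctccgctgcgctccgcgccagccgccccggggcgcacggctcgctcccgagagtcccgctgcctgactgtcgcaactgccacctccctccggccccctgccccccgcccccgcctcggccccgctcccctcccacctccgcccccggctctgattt
WNT10A (chr2:218880602-218880851, plus strand): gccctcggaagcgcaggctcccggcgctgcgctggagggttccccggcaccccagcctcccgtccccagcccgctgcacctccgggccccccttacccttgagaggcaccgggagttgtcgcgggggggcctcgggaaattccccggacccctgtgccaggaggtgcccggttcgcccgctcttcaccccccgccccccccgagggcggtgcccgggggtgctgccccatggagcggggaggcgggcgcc
WLS (chr1:68232524-68232773, minus strand): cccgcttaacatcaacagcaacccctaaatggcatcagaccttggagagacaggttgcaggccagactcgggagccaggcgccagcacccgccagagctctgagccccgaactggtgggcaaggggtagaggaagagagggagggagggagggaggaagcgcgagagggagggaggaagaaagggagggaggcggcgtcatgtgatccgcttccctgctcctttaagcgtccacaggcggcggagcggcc
DKK1 (chr10:52314031-52314280, plus strand): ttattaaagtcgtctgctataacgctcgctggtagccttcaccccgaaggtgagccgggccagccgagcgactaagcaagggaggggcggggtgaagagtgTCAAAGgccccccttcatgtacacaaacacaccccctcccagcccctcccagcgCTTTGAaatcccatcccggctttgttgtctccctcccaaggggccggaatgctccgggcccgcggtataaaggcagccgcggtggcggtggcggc
The windows of WNT6, WNT10A and WLS held 0 copies of the motif and that of DKK1 held 2. The WNT10A window lies inside the span given above, which begins upstream of it. WLS has 2 listed windows, of which the first is shown, and it overlaps the end of the WLS record at 68232546. The WNT6 window was 79.2% G and C with 32 CpG pairs, that of WNT10A 77.6% with 24, that of DKK1 62.8% with 18 and that of WLS 64.0% with 14. Promoter windows were matched for 33 of the 47 genes, with 42 windows in all, and 2 of these 42 (4.8%) held the motif, namely those of DKK1 and PORCN, compared with 11.2% of all 35116 windows of that length.

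WNT11, a ligand known for its part in cell movement, was the third ligand called lower. It was weakly expressed, with 20 and 23 counts in shNC and 11 and 9 counts in shTPX2, or 1.05 and 1.11 TPM in the shNC libraries and 0.44 and 0.45 TPM in the shTPX2 libraries. The groups did not overlap, and its log2 fold change was −1.02 (SE 0.469, edgeR unadjusted p = 0.0693 and adjusted p = 0.653, limma unadjusted p = 0.0757). The call was lost whichever library was left out, although the log2 fold change stayed between −0.89 and −1.15 over those 4 fits.

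The other ligands were not called. WNT4, a ligand of kidney and gonad development, had the lowest log2 fold change among them, −0.69 (SE 0.419, edgeR adjusted p = 0.728), but shNC 2 with 13.6 TPM stood apart from the other 3 libraries, which had 4.62 to 7.32 TPM. Without shNC 2 it was −0.041. WNT7A, the closest relative of WNT7B, had 22.4 and 18.9 TPM in the shNC libraries and 18.4 and 10.0 TPM in the shTPX2 libraries, with shTPX2 2 the lowest and a log2 fold change of −0.41 (SE 0.339, edgeR adjusted p = 0.791). WNT9A and WNT3 also differed within shNC, with 15.1 and 4.85 TPM for WNT9A and 9.25 and 4.62 TPM for WNT3. Their log2 fold changes of 0.18 and −0.16 turned to −0.44 without shNC 2 and to 0.46 without shNC 1, respectively. WNT5A, the main ligand of the branches that do not use beta-catenin, was even across libraries at 15.1 to 17.6 TPM, with a log2 fold change of −0.036 (SE 0.158, edgeR adjusted p = 0.968). WNT5B (0.094) and WNT10B (0.27) were expressed at 2.91 to 5.74 TPM.

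Of the genes for ligand secretion, WLS was called lower and PORCN was not called. WLS encodes the carrier that brings WNT proteins from the Golgi to the cell surface, and PORCN the enzyme that attaches their lipid. WLS (NCBI gene 79971, chromosome 1, 68098459 to 68232546) measured 6.64 and 11.4 TPM in the shNC libraries and 3.96 and 3.13 TPM in the shTPX2 libraries. Both shTPX2 libraries were below both shNC libraries, and shNC 2 was the highest. The log2 fold change was −1.21 (SE 0.362, edgeR unadjusted p = 0.014 and adjusted p = 0.579, limma unadjusted p = 0.0206), and −0.76 without shNC 2. DESeq2 gave an adjusted p of 0.211 for WLS. PORCN had 12.0 and 10.6 TPM in the shNC libraries and 11.8 and 10.2 TPM in the shTPX2 libraries, and its log2 fold change was 0.087 (SE 0.251, edgeR adjusted p = 0.953). PORCN took 64.5% and 48.2% of the summed TPM of the pair in shNC and 74.9% and 76.5% in shTPX2, which restates the lower WLS values.

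**Figure D2:**
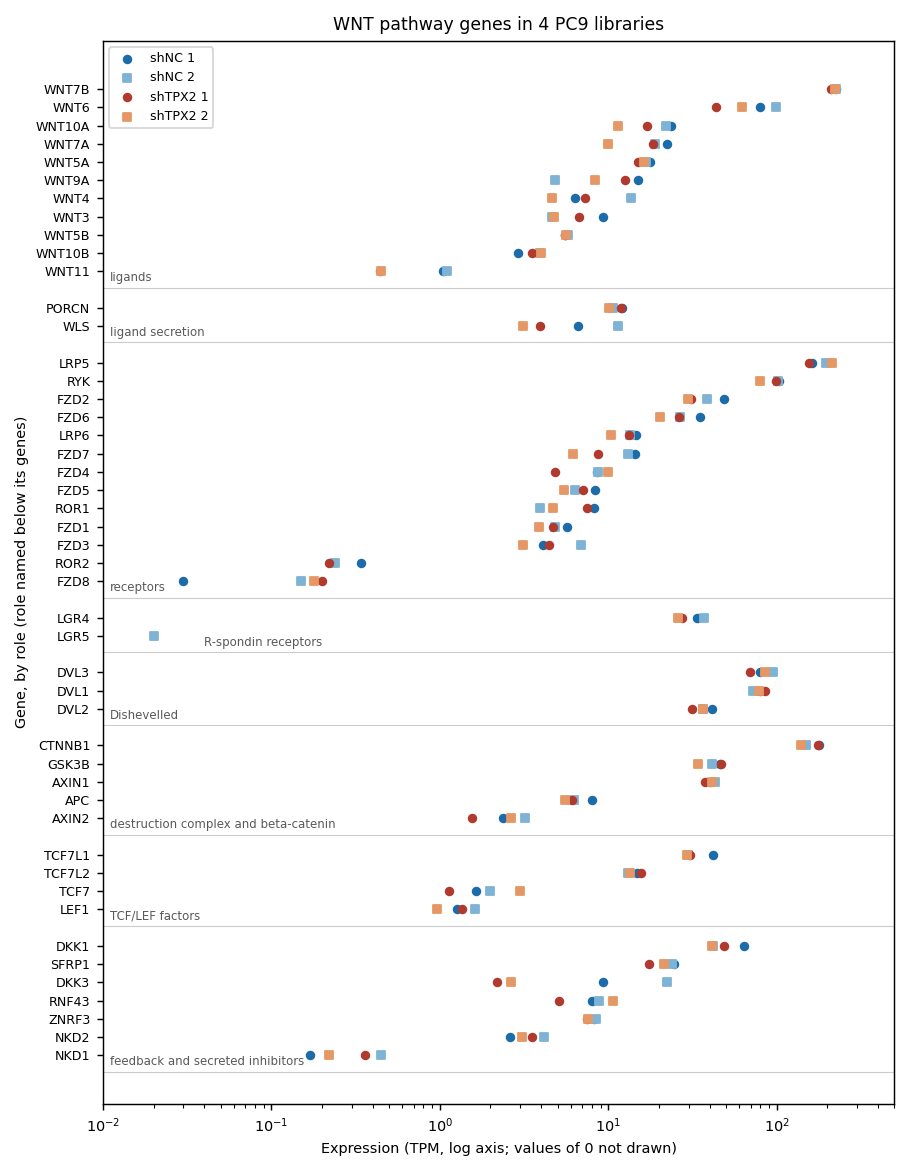
Expression of the 47 genes in each of the 4 libraries (horizontal axis, TPM on a log axis, values of 0 not drawn), grouped by role on the vertical axis and ordered by mean level within a role. WNT7B, LRP5 and CTNNB1 lie at 139 TPM or more in all libraries, while NKD1, ROR2, FZD8 and LGR5 lie under 1 TPM in all of them.

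Among the receptors, the co-receptor LRP5 had the highest level, 163 and 195 TPM in the shNC libraries and 157 and 212 TPM in the shTPX2 libraries, and 11.2 to 20.4 times the TPM of its relative LRP6. Neither was called, with log2 fold changes of 0.099 (SE 0.184, edgeR adjusted p = 0.917) and −0.13 (SE 0.195, edgeR adjusted p = 0.889). RYK, a receptor with an inactive kinase domain, had 79.4 to 103 TPM and a log2 fold change of −0.076 (SE 0.188, edgeR adjusted p = 0.943). Of the 12 tested receptors 10 had a log2 fold change below 0, against 7185 of all 14048 tested genes. The median of the 12 was −0.17, ROR2 included.

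FZD7 (NCBI gene 8324, chromosome 2, 202033855 to 202038441), a Frizzled receptor known from stem cells, had the clearest difference among the receptors. It measured 14.5 and 13.0 TPM in the shNC libraries and 8.68 and 6.18 TPM in the shTPX2 libraries, the groups did not overlap, and the log2 fold change was −0.76 (SE 0.248, edgeR unadjusted p = 0.0199 and adjusted p = 0.579, limma unadjusted p = 0.0181). The call was lost without shTPX2 2, with a log2 fold change of −0.52. FZD2 (NCBI gene 2535), the most abundant Frizzled gene here, measured 48.8 and 38.8 TPM in the shNC libraries and 31.2 and 29.8 TPM in the shTPX2 libraries. Both shTPX2 libraries were again lower, with a log2 fold change of −0.40 (SE 0.187, edgeR unadjusted p = 0.0738 and adjusted p = 0.657, limma unadjusted p = 0.0829). It was −0.19 without shNC 1, and the call was kept only without shNC 2 among the fits that leave out a library. FZD2, FZD7 and other Frizzled genes are close relatives, and how reads from similar stretches were assigned is not given in the sources used here, so these values are uncertain to that extent.

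ROR2 (NCBI gene 4920), a receptor kinase that binds WNT5A, was near the detection limit with 16 and 11 counts in shNC and 8 and 0 counts in shTPX2. The log2 fold change was −1.66 (SE 1.03, edgeR unadjusted p = 0.155 and adjusted p = 0.736, limma unadjusted p = 0.0597), so edgeR and limma differed on it. The count of 0 in shTPX2 2 decided its size. Without that library the log2 fold change was −0.68 and the call was lost, as it was without shNC 1. A count of 0 allows up to 3 counts in shTPX2 2, and the mean shNC level, scaled for library size, was 4.26-fold above that limit. This ratio leaves out the 8 counts of shTPX2 1. It covers the counting error of the 0 only and takes the low shNC counts as exact, so it is no lower limit on the difference. ROR1, its relative, had 8.22 and 3.94 TPM in the shNC libraries and 7.53 and 4.73 TPM in the shTPX2 libraries and a log2 fold change of 0.15 (SE 0.443, edgeR adjusted p = 0.953), which was 0.90 without shNC 1 and −0.34 without shNC 2.

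The remaining Frizzled genes were not called. FZD6 had 20.4 to 34.95 TPM and a log2 fold change of −0.24, FZD3 −0.32, FZD1 −0.17 and FZD5 −0.16. FZD4, a receptor of blood vessel development, had 8.52 and 8.71 TPM in the shNC libraries and 4.8 and 9.91 TPM in the shTPX2 libraries, so its shTPX2 libraries lay on either side of shNC, and its log2 fold change of −0.11 was 0.31 without shTPX2 1. FZD8, with 1 and 5 counts in shNC and 7 and 6 counts in shTPX2, was not tested. The R-spondin receptor LGR4, which strengthens WNT responses, measured 33.8 and 37.3 TPM in the shNC libraries and 27.5 and 25.8 TPM in the shTPX2 libraries. The groups did not overlap, with a log2 fold change of −0.29 (SE 0.161, edgeR adjusted p = 0.702), but LGR4 was not called. LGR5, a marker of intestinal stem cells, had 0 counts in 3 libraries and 1 count in shNC 2, and was not tested. A count of 0 allows up to 3 counts per library.

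**Figure D3:**
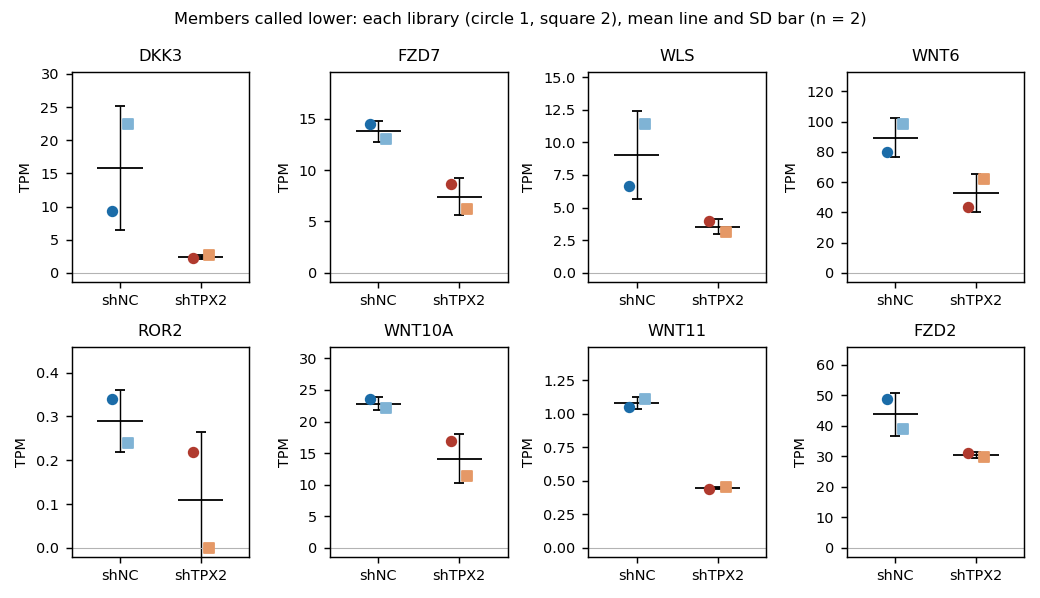
TPM of the 8 genes called lower in shTPX2, in each library (circles library 1, squares library 2), with the group mean as a line and the SD as a bar (n = 2). The groups do not overlap in any panel, and the shNC libraries stand furthest apart in proportion for DKK3, at 9.26 and 22.4 TPM, and for WLS, at 6.64 and 11.4 TPM. The genes were picked by their call, which favours such separation, and in CPM the groups lay wholly apart for 39.6% of all genes.

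No Dishevelled, destruction complex or beta-catenin gene was called. CTNNB1, which encodes beta-catenin, measured 179 and 149 TPM in the shNC libraries and 175 and 139 TPM in the shTPX2 libraries, or 164 ± 21.4 TPM in shNC and 157 ± 25.4 TPM in shTPX2 (SD, n = 2 each). The libraries numbered 1 were higher than those numbered 2 in both groups, the groups overlapped, and the log2 fold change was 0.058 (SE 0.21, edgeR adjusted p = 0.963). Its sign was not stable, at 0.23 without shNC 1 and −0.12 without shTPX2 1. In the destruction complex the log2 fold changes were 0.061 for AXIN1 and −0.15 for APC, which are scaffold proteins, and 0.018 for the kinase GSK3B, with standard errors of 0.154, 0.203 and 0.216. With library size in place of TMM, those of AXIN1, GSK3B and CTNNB1 were below 0. The Dishevelled genes, which carry the signal from Frizzled to that complex, had log2 fold changes of 0.23 for DVL1, −0.084 for DVL2 and −0.052 for DVL3. DVL3 was the most abundant of them with 79.8 and 94.8 TPM in the shNC libraries and 69.1 and 85.6 TPM in the shTPX2 libraries. Of the 8 genes in both groups of components 0 had an unadjusted p under 0.05 in edgeR, against 8.03% of all genes. The lowest edgeR adjusted p of the 8 was 0.773.

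TCF/LEF factors, which bind DNA together with beta-catenin, were led by TCF7L1, a member known mainly as a repressor. It measured 41.9 and 29.9 TPM in the shNC libraries and 30.8 and 29.3 TPM in the shTPX2 libraries, with shNC 1 the highest and the other 3 libraries at 29.3 to 30.8 TPM, and its log2 fold change was −0.14 (SE 0.215, edgeR adjusted p = 0.894). TCF7L2 had 13.2 to 15.8 TPM and a log2 fold change of 0.20 (SE 0.193, edgeR adjusted p = 0.818). TCF7 and LEF1, which are themselves targets of the pathway in many cells, were low, at 0.96 to 3.01 TPM. The shTPX2 libraries of TCF7 lay on either side of shNC, with 1.13 and 3.01 TPM in shTPX2, and its log2 fold change was 0.35 (SE 0.495, edgeR adjusted p = 0.884), or −0.44 without shTPX2 2. For LEF1 it was −0.31 (SE 0.39, edgeR adjusted p = 0.871). None of the 4 was called.

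AXIN2, a negative feedback gene widely used as a readout of beta-catenin activity, measured 2.38 and 3.19 TPM in the shNC libraries and 1.56 and 2.66 TPM in the shTPX2 libraries. The groups overlapped and the log2 fold change was −0.26 (SE 0.378, edgeR adjusted p = 0.89). It was 0.061 without shTPX2 1 and −0.64 without shTPX2 2. RNF43 and ZNRF3 encode membrane ubiquitin ligases that remove Frizzled receptors and are also feedback genes. ZNRF3 was nearly equal in all libraries, 8.23 and 8.5 TPM in the shNC libraries and 7.45 and 7.6 TPM in the shTPX2 libraries, with a log2 fold change of −0.025 (SE 0.174, edgeR adjusted p = 0.98). RNF43 had 8.03 and 8.85 TPM in the shNC libraries and 5.13 and 10.7 TPM in the shTPX2 libraries, so its shTPX2 libraries lay on either side of shNC, and its log2 fold change was −0.0027 with a standard error of 0.35. NKD1 and NKD2, which bind Dishevelled, had log2 fold changes of −0.067 (SE 0.611, edgeR adjusted p = 0.985) and 0.045 (SE 0.385, edgeR adjusted p = 0.984). NKD1 was 0.94 without shNC 2. Of 7 members that are feedback or target genes of the pathway (AXIN2, LGR5, RNF43, ZNRF3, NKD1, TCF7 and LEF1), 6 were tested. Limma called 0 of the 6, against 14.2% of all genes, and 0 had an unadjusted p under 0.05 in edgeR, against 8.03% of all genes. DESeq2 adjusted p-values were 0.999 for each of the 6.

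Among the secreted inhibitors only DKK3 was called by limma. DKK3 (NCBI gene 27122, chromosome 11, 11963036 to 12009745) is a divergent member of the Dickkopf family that is silenced in many tumours. It measured 9.26 and 22.4 TPM in the shNC libraries and 2.18 and 2.66 TPM in the shTPX2 libraries, or 255 and 595 counts in shNC and 63 and 73 counts in shTPX2. Both shTPX2 libraries were far below both shNC libraries, and shNC 2 was the highest. Its mean was 15.8 ± 9.32 TPM in shNC and 2.42 ± 0.339 TPM in shTPX2 (SD, n = 2 each), and its log2 fold change was −2.56 (SE 0.44, edgeR unadjusted p = 0.000902 and adjusted p = 0.437, limma unadjusted p = 0.00317). It was the lowest log2 fold change of the 45 genes, with −1.85 without shNC 2 and −3.03 without shNC 1. The Wald test of DESeq2 gave DKK3 an adjusted p of 1.4e-05, and edgeR without shNC 1 gave 0.032, while in the other fits with edgeR the adjusted p was above 0.05. The summed fibroblast markers were also lower in shTPX2, as given above. Most of the sum was COL1A1, with 8.64 and 12.0 TPM in the shNC libraries and 5.72 and 8.04 TPM in the shTPX2 libraries, which limma did not call. PDGFRB was called lower by limma, with 24 and 20 counts in shNC and 8 and 8 counts in shTPX2. Only shNC reached the cutoff of the filter on low counts for PDGFRB, so the filter favoured that direction and the call adds no support. COL1A2, COL3A1, DCN and LUM had 0 to 5 counts in each library and were not tested. The part of these markers in the DKK3 result was not tested.

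DKK1, which blocks LRP5 and LRP6, was the most abundant inhibitor, with 64.2 and 41.8 TPM in the shNC libraries and 48.9 and 41.3 TPM in the shTPX2 libraries. The groups overlapped, since shNC 2 lay between the shTPX2 libraries, and the log2 fold change was −0.11 (SE 0.253, edgeR adjusted p = 0.934). It was 0.26 without shNC 1. SFRP1, a secreted protein that binds WNT ligands, had 24.6 and 24.0 TPM in the shNC libraries and 17.5 and 21.4 TPM in the shTPX2 libraries and a log2 fold change of −0.20 (SE 0.171, edgeR adjusted p = 0.798). Neither gene was called, and the difference between them and DKK3 was not tested.

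**Figure D4:**
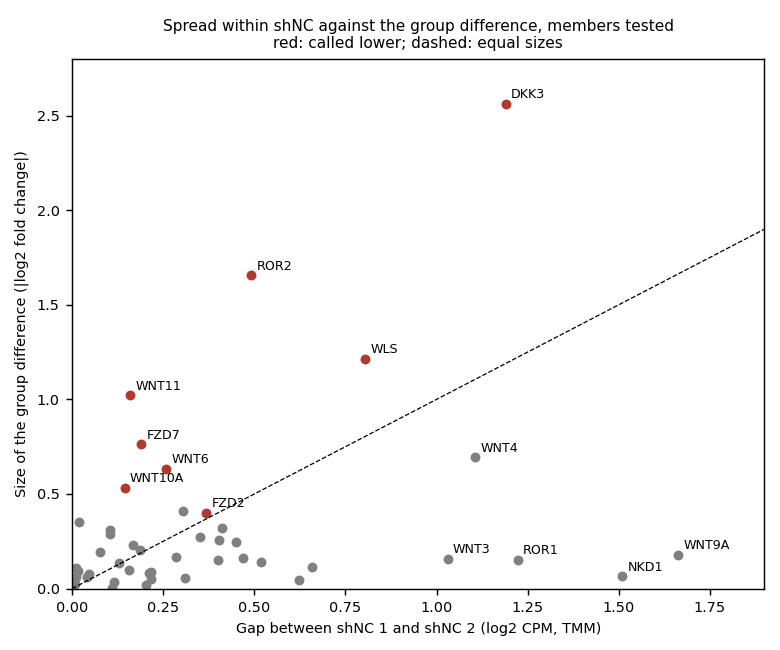
Gap between the shNC libraries (horizontal axis, log2 CPM with TMM) against the size of the group difference (vertical axis, absolute log2 fold change) for the 45 tested genes. The 8 red points, called lower, lie above the dashed line of equal sizes, while WNT9A, NKD1, ROR1, WNT4 and WNT3 lie below it with shNC gaps over 1. The call itself weighs the group difference against the spread within groups, so the place of the red points is no separate support.

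A wider list of 83 other pathway genes was set beside these. The table held 75 of them, and WNT2, WNT8A, RSPO1, RSPO2, DKK2, SFRP4, SFRP5 and WIF1 were not analysed here. Of the 63 that were tested, 11 (17.5%) were called by limma, against 14.2% of all genes. Of these, 2 were higher, against 6.24% of all genes, and 9 were lower, against 7.99%. Among the 57 genes that reached the cutoff of the filter on low counts in both groups, 8 were called lower. TLE4 reached it in shNC only and adds no support to the count. Their median log2 fold change was −0.09. Adjusted over all genes, 0 passed 0.05 in edgeR, with adjusted p-values from 0.579 upwards. Of the 63, 10 had an unadjusted p under 0.05 in edgeR, against 8.03% of all genes. No R-spondin was tested, and RSPO3, RSPO4 and NDP, which encode ligands of LGR and Frizzled receptors, had 0 to 2 counts in each library.

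Of the 10 genes under other receptors in the wider list, 3 were called lower, namely VANGL2, CELSR2 and PRICKLE1, against 7.99% of all genes. That heading also takes in polarity genes that do not encode receptors, such as PRICKLE1. The 3 called genes are known from planar cell polarity, a branch without beta-catenin. VANGL2, a core membrane protein of that branch, measured 17.6 and 21.8 TPM in the shNC libraries and 11.8 and 9.69 TPM in the shTPX2 libraries, with a log2 fold change of −0.75 (SE 0.203, edgeR unadjusted p = 0.00914 and adjusted p = 0.579, limma unadjusted p = 0.0103). VANGL2 was called in each of the 4 fits that leave out a library. CELSR2, a large adhesion receptor, had 10.2 and 10.4 TPM in the shNC libraries and 7.42 and 5.27 TPM in the shTPX2 libraries and a log2 fold change of −0.57 (SE 0.217, edgeR adjusted p = 0.609), which was −0.32 without shTPX2 2, where the call was lost. PRICKLE1, an intracellular partner of VANGL proteins, had 2.51 and 2.08 TPM in the shNC libraries and 1.23 and 0.81 TPM in the shTPX2 libraries and a log2 fold change of −1.002 (SE 0.392, edgeR adjusted p = 0.619), and was not called without shTPX2 2. Their relatives VANGL1, CELSR1 and CELSR3 were not called, with log2 fold changes of 0.026, 0.19 and −0.19. PTK7, a co-receptor of the same branch, stood at 84.9 to 108 TPM with a log2 fold change of −0.13.

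Of the 14 nuclear cofactors of the wider list, 3 were called lower, against 7.99% of all genes, namely TLE1, TLE2 and TLE4. TLE genes encode co-repressors that hold TCF/LEF targets silent. TLE1 measured 34.7 and 41.6 TPM in the shNC libraries and 26.9 and 25.4 TPM in the shTPX2 libraries with a log2 fold change of −0.46 (SE 0.172, edgeR adjusted p = 0.604). TLE2 measured 51.3 and 66.7 TPM in the shNC libraries and 36.4 and 40.7 TPM in the shTPX2 libraries, with a log2 fold change of −0.49 (SE 0.178, edgeR adjusted p = 0.597). TLE4 was low, with 32 and 57 counts in shNC and 5 and 17 counts in shTPX2, and had a log2 fold change of −1.93 (SE 0.66, edgeR adjusted p = 0.587), which was −3.05 without shTPX2 2, −1.29 without shTPX2 1 and −1.47 without shNC 2. For TLE4, too, only shNC reached the cutoff of the filter on low counts in both libraries, so it adds no support to the count of 3. TLE3, at 46.5 to 53.2 TPM, had a log2 fold change of 0.036. Calls were lost for TLE1 without shNC 2 and without shTPX2 2, for TLE2 without shNC 2 and without shTPX2 1, and for TLE4 without shTPX2 1. The co-activators BCL9, BCL9L, PYGO1, PYGO2, CREBBP and EP300 had log2 fold changes of −0.41 to 0.18 and were not called.

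Among regulators of the destruction complex, GSK3A, the second GSK3 kinase, was called higher, with 93.8 and 85.2 TPM in the shNC libraries and 119 and 109.9 TPM in the shTPX2 libraries and a log2 fold change of 0.48 (SE 0.169, edgeR adjusted p = 0.596). The call was lost without shNC 2 and without shTPX2 1. The tankyrases TNKS and TNKS2, which mark AXIN for degradation, were called lower. TNKS measured 12.4 and 12.2 TPM in the shNC libraries and 8.58 and 7.97 TPM in the shTPX2 libraries, with a log2 fold change of −0.45 (SE 0.162, edgeR adjusted p = 0.597). TNKS2 measured 37.1 and 35.6 TPM in the shNC libraries and 25.1 and 27.9 TPM in the shTPX2 libraries, with a log2 fold change of −0.33 (SE 0.159, edgeR adjusted p = 0.66). TNKS was not called without shTPX2 2, and TNKS2 was called only without shNC 2 among those 4 fits. KREMEN1, a DKK1 co-receptor, had 23.2 and 31.4 TPM in the shNC libraries and 17.4 and 17.2 TPM in the shTPX2 libraries and a log2 fold change of −0.53 (SE 0.191, edgeR adjusted p = 0.597), which was −0.33 without shNC 2. KREMEN1 was not called without shNC 2 or without shTPX2 2, and KREMEN2 had a log2 fold change of 0.17. The casein kinases, BTRC, FBXW11, AMER1, APC2, FRAT1, FRAT2 and USP34 were not called.

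Of 16 tested genes that are commonly cited as targets, 1 (6.25%) was called, against 14.2% of all genes. This was FOSL1, an AP-1 subunit, which was higher with 35.6 and 24.4 TPM in the shNC libraries and 65.8 and 42.7 TPM in the shTPX2 libraries. Its log2 fold change was 0.99 (SE 0.303, edgeR unadjusted p = 0.0156 and adjusted p = 0.579, limma unadjusted p = 0.0182). It was 0.62 without shTPX2 1 and was called in each fit that leaves out a library. MYC measured 52.4 and 47.7 TPM in the shNC libraries and 84.3 and 46.6 TPM in the shTPX2 libraries, so shTPX2 1 stood above the other 3 libraries, and its log2 fold change of 0.52 (SE 0.299, edgeR adjusted p = 0.719) was 0.0048 without shTPX2 1. CCND1 had a log2 fold change of 0.14 (SE 0.288, edgeR adjusted p = 0.927), or −0.21 without shNC 2, and CD44 had −0.20 (SE 0.195, edgeR adjusted p = 0.822). The median log2 fold change of the 16 was 0.035, with 8 above 0 and 8 below.

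**Figure D5:**
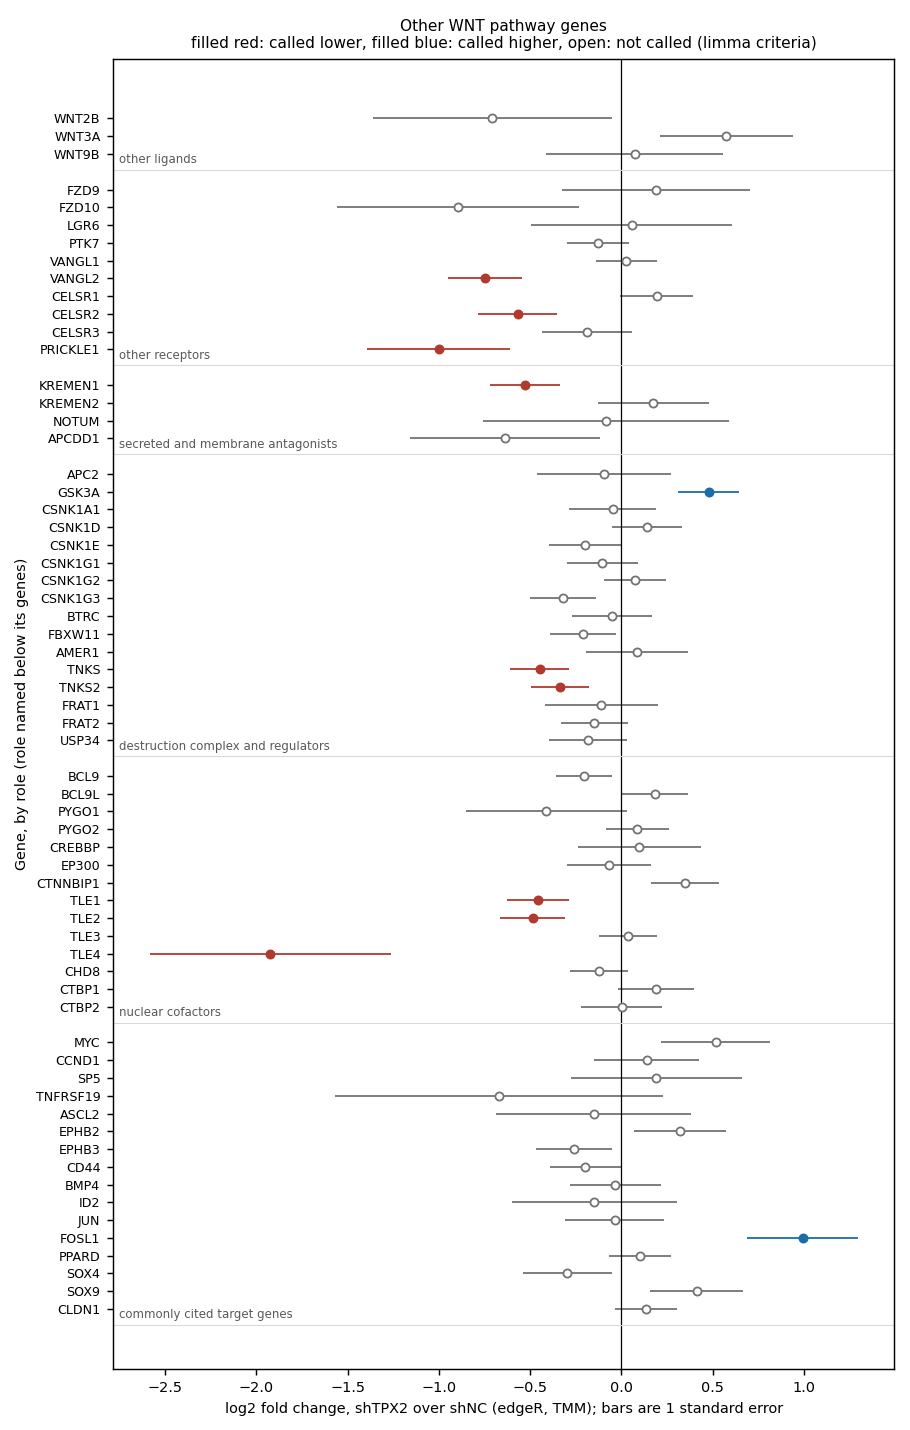
Log2 fold change of shTPX2 over shNC for the 63 tested genes of the wider list (horizontal axis, edgeR with TMM), grouped by role on the vertical axis, with bars of 1 standard error. The 9 filled red points were called lower and the 2 filled blue points, GSK3A and FOSL1, higher.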

How the data were processed

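RNA of the 4 libraries was poly(A)-selected and sequenced. By the study's methods, SOAPnuke removed poor reads, HISAT2/Bowtie2 did the alignment, and RSEM or StringTie gave the gene values. The methods do not say which of each pair was used. The submitters' processing notes name HISAT2, featureCounts, DESeq2 and GRCh38, so the sources differ on the quantification. The authors deposited expected counts per gene, of which 42.2% to 44.6% were not whole, along with TPM values and FPKM values. FPKM values were not used. The authors' average columns equalled the mean of the 2 listed libraries for 542 genes in shNC and 616 in shTPX2 of 18134 (within 0.02 counts), and were not used.

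Expected counts were rounded, filtered with filterByExpr (14048 genes kept), and tested with edgeR 4.0.16 (quasi-likelihood, TMM, Benjamini-Hochberg adjustment over all genes) in R 4.3.3. Limma 3.58.1 with voom was run at the study's criteria. TMM factors were 0.959 to 1.05 and the common dispersion was 0.0485, so the spread between libraries limits the precision. An exact permutation test of 2 against 2 cannot give a p below 0.333. Alternatives were other normalizations, DESeq2 1.42.0, other filters, a replicate block and leaving out each library. The fits were tested on simulated data. The genes were chosen, and the lists written from general knowledge, with earlier results of these data known. Named were TPX2, all 47 members, and of the wider list the genes called or at an unadjusted p under 0.05 in edgeR, with MYC, CCND1 and CD44. Other genes of the wider list are named as relatives of these or in counts, chosen after their values were seen. Promoter windows come from RefSeq (GRCh38.p14).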

Additional observations from a re-analysis of the deposited data

How the results depend on the processing

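With 2 libraries per group, no member passed an adjusted p of 0.05 in edgeR under any normalization, filter or block, and 1 did with DESeq2 (DKK3). Over all genes, DESeq2 called 33 higher and 78 lower, where edgeR called 0 and 0 (440 higher and 688 lower at an unadjusted p under 0.05). At the study's criteria 876 genes were called higher and 1122 lower, and with library size only in place of TMM, 578 higher and 1445 lower, so the split moved with the scaling, whereas members called lower went from 8 to 9. With an adjusted p of at most 0.1 in limma, 0 genes were called higher and 1 lower over all genes, with 0 members and 0 of the wider list in either direction.

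Leaving out each library in turn gave 0 to 5 genes higher and 0 to 20 lower at an adjusted p under 0.05 in edgeR, of which 0 to 1 were members. At the study's criteria it gave 495 to 1546 higher and 523 to 1969 lower over all genes, 0 to 2 members higher and 4 to 10 lower, and 2 to 8 of the wider list higher and 4 to 11 lower. Members at an unadjusted p under 0.05 in edgeR numbered 0 to 2 higher and 3 to 6 lower. The median log2 fold change of the members ran from −0.24 to −0.019 in these fits.

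The replicate numbers 1 and 2 are shared by the groups, but nothing in the labels ties libraries of a number to each other. The correlation across genes of the gap between libraries 1 and 2 in shNC with that in shTPX2 was 0.182. With the replicate block, 8 members were called lower, the same genes as without it, and 4 genes of the wider list were called higher in place of 2, MYC and CTNNBIP1 being the added genes. The block ended no call of a gene named above as called. The sign turned for NKD1 under the block (0.067).

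With library size only, the sign turned for WNT7B (−0.0100), AXIN1 (−0.0089), GSK3B (−0.053), CTNNB1 (−0.011) and NKD2 (−0.034). RNF43, at −0.0027 with TMM, was above 0 with RLE factors (0.0019), with no filter (0.014) and with DESeq2 (0.0021). Leaving out single libraries turned the sign of 24 log2 fold changes, whose ranges over the 4 fits were as follows: WNT3 (−0.59 to 0.46), WNT5A (−0.098 to 0.032), WNT9A (−0.44 to 1.25), PORCN (−0.038 to 0.21), FZD4 (−0.69 to 0.31), FZD5 (−0.41 to 0.0996), FZD6 (−0.48 to 0.0076), LRP5 (−0.011 to 0.21), LRP6 (−0.35 to 0.065), ROR1 (−0.34 to 0.90), RYK (−0.26 to 0.10), DVL2 (−0.19 to 0.036), DVL3 (−0.19 to 0.085), AXIN2 (−0.64 to 0.061), APC (−0.34 to 0.075), GSK3B (−0.24 to 0.25), CTNNB1 (−0.12 to 0.23), TCF7 (−0.44 to 0.87), TCF7L1 (−0.39 to 0.15), RNF43 (−0.60 to 0.43), NKD1 (−0.65 to 0.94), NKD2 (−0.23 to 0.39), DKK1 (−0.41 to 0.26) and CCND1 (−0.21 to 0.60). DKK3 ranged from −3.03 to −1.85 and stayed below 0. The cause of these turns was not tested.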
